A study of Caenorhabditis elegans with 30 samples.

Results

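The 10 genes described here act in the oocyte and in the egg it becomes: *oma-1*, *oma-2*, *puf-3*, *puf-5*, *puf-11*, *rme-2*, *spn-4*, *pos-1*, *egg-1* and *mex-3*. They were chosen by name, with earlier results of these data known. The estimated counts of their transcripts were summed for each gene, which gave 10 of 19988 genes. All 10 were found, and all 10 passed the filter on low counts in each model, which tested 16850, 16285 or 16141 genes. RNA was sequenced from whole *C. elegans* animals raised from bleached embryos on *E. coli* OP50 at 20 °C and collected at the L4 stage, the last larval stage before adulthood. The 30 libraries form 10 groups of 3.

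In the extract experiment, animals with the mutation *flor-1(icb93)*, animals with *old-1(ok1273)* and wild-type N2 animals were each collected with and without extract of the oomycete *Myzocytiopsis humicola*, a natural pathogen of the worm. OLD-1 and FLOR-1 are receptor tyrosine kinase family members that the study placed in oomycete recognition in the epidermis. *ok1273* is a deletion, and *icb93* came from a mutagenesis screen run in animals with a *chil-27p::GFP* reporter, which the label of these samples does not name. The own-promoter group carries the extrachromosomal array icbEx308, which holds *old-1p::OLD-1::GFP* with the marker *bus-1p::GFP* and pBJ36, and also icbIs4, labelled pGO4 and pCMH1195 on IV. Its control is made of non-transgenic animals picked from the same population and labelled N2(icbIs5), so the integrated insertion has another name in the control's label than in that of the transgenic group. The third experiment compares animals with the array icbEX359, in which *old-1* is driven by the epidermal promoter *dpy-7p* (pFD20) beside the hygromycin resistance construct PIP1303F and pBJ36, with animals whose array, icbEx360, has only PIP1303F and pBJ36. Each overexpressing group is thus 1 line. The labels do not say whether the 3 libraries of a group came from separate cultures, so p-values measure the spread between these samples, which may be technical.

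In the hermaphrodite, sperm are made first and the germ line then switches to oocytes, which grow in a row, take up yolk and store messenger RNAs that the embryo will use before its own genome is active. Many of those messengers are kept silent by RNA-binding proteins until the oocyte matures, ovulates and is fertilised. OMA-1 and OMA-2 are CCCH zinc finger proteins that together are required for oocyte maturation. PUF-3, PUF-5 and PUF-11 are Pumilio-family repressors of maternal messengers. RME-2 is the yolk receptor of the oocyte and EGG-1 is an oocyte surface protein needed for fertilisation, whereas SPN-4, POS-1 and MEX-3 bind maternal messengers and set cell fates in the early embryo.

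Library depth was 19214839 to 38956390 estimated counts. Levels are given as CPM, which relates a gene's counts to the library total, scaled over the 30 libraries by the trimmed mean of M values, and genes are compared with each other only in TPM, the level per transcript length scaled to the library. The *old-1* gene itself had 40.7 to 60.2 CPM in old-1p::old-1 animals, against 0.577 to 1.01 CPM in their controls, and 52.4 to 81.9 CPM in dpy-7p::old-1 animals, against 1.20 to 1.62 CPM in hygromycin controls. In *old-1(ok1273)* it had 0.548 to 1.19 CPM, against 1.61 to 3.44 CPM in N2. Levels in *flor-1(icb93)*, 0.984 to 1.36 CPM, and in the non-transgenic controls overlapped those of *old-1(ok1273)*, so this level does not mark the deletion. The 6 *flor-1(icb93)* libraries also differed from the other 24 in the gap between a transcript's length and its effective length, which follows the fragment length. This gap was 154.6 to 165.4 bases in them and 239.8 to 273.4 bases elsewhere. The labels do not say why, and this difference and the *flor-1* genotype cannot be told apart. A few libraries stood apart within their group. Untreated N2 replicates B and C had a summed level of the 6 yolk protein genes of 1202 and 2358 CPM, against 14.1 CPM in replicate A. In old-1p::old-1 animals that sum was 4403 CPM in replicate A and 38473 and 48878 CPM in B and C, and in non-transgenic controls it was 731 CPM in replicate C and 16682 and 14864 CPM in A and B.

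The 10 genes were present in every library and their levels differed widely between libraries. Their mean log2 CPM was lowest in untreated *old-1(ok1273)*, 2.96 ± 0.13, followed by extract-treated N2 at 2.97 ± 0.05, extract-treated *old-1(ok1273)* at 3.14 ± 0.12 and untreated N2 at 3.90 ± 0.78 (SD, n = 3 each). Both *flor-1(icb93)* groups lay above these, at 5.33 ± 0.16 untreated and 5.51 ± 0.04 with extract. Hygromycin controls had 6.14 ± 0.13, non-transgenic controls 6.58 ± 1.51, old-1p::old-1 animals 7.90 ± 1.68 and dpy-7p::old-1 animals 8.12 ± 0.13. Along this order the ranges of neighbouring groups separated only between untreated N2 and untreated *flor-1(icb93)*, and between extract-treated *flor-1(icb93)* and the hygromycin controls. The summed level of the 10 genes was 100 CPM in the lowest library and 5408 CPM in the highest, old-1p::old-1 replicate C.

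**Figure D1:**
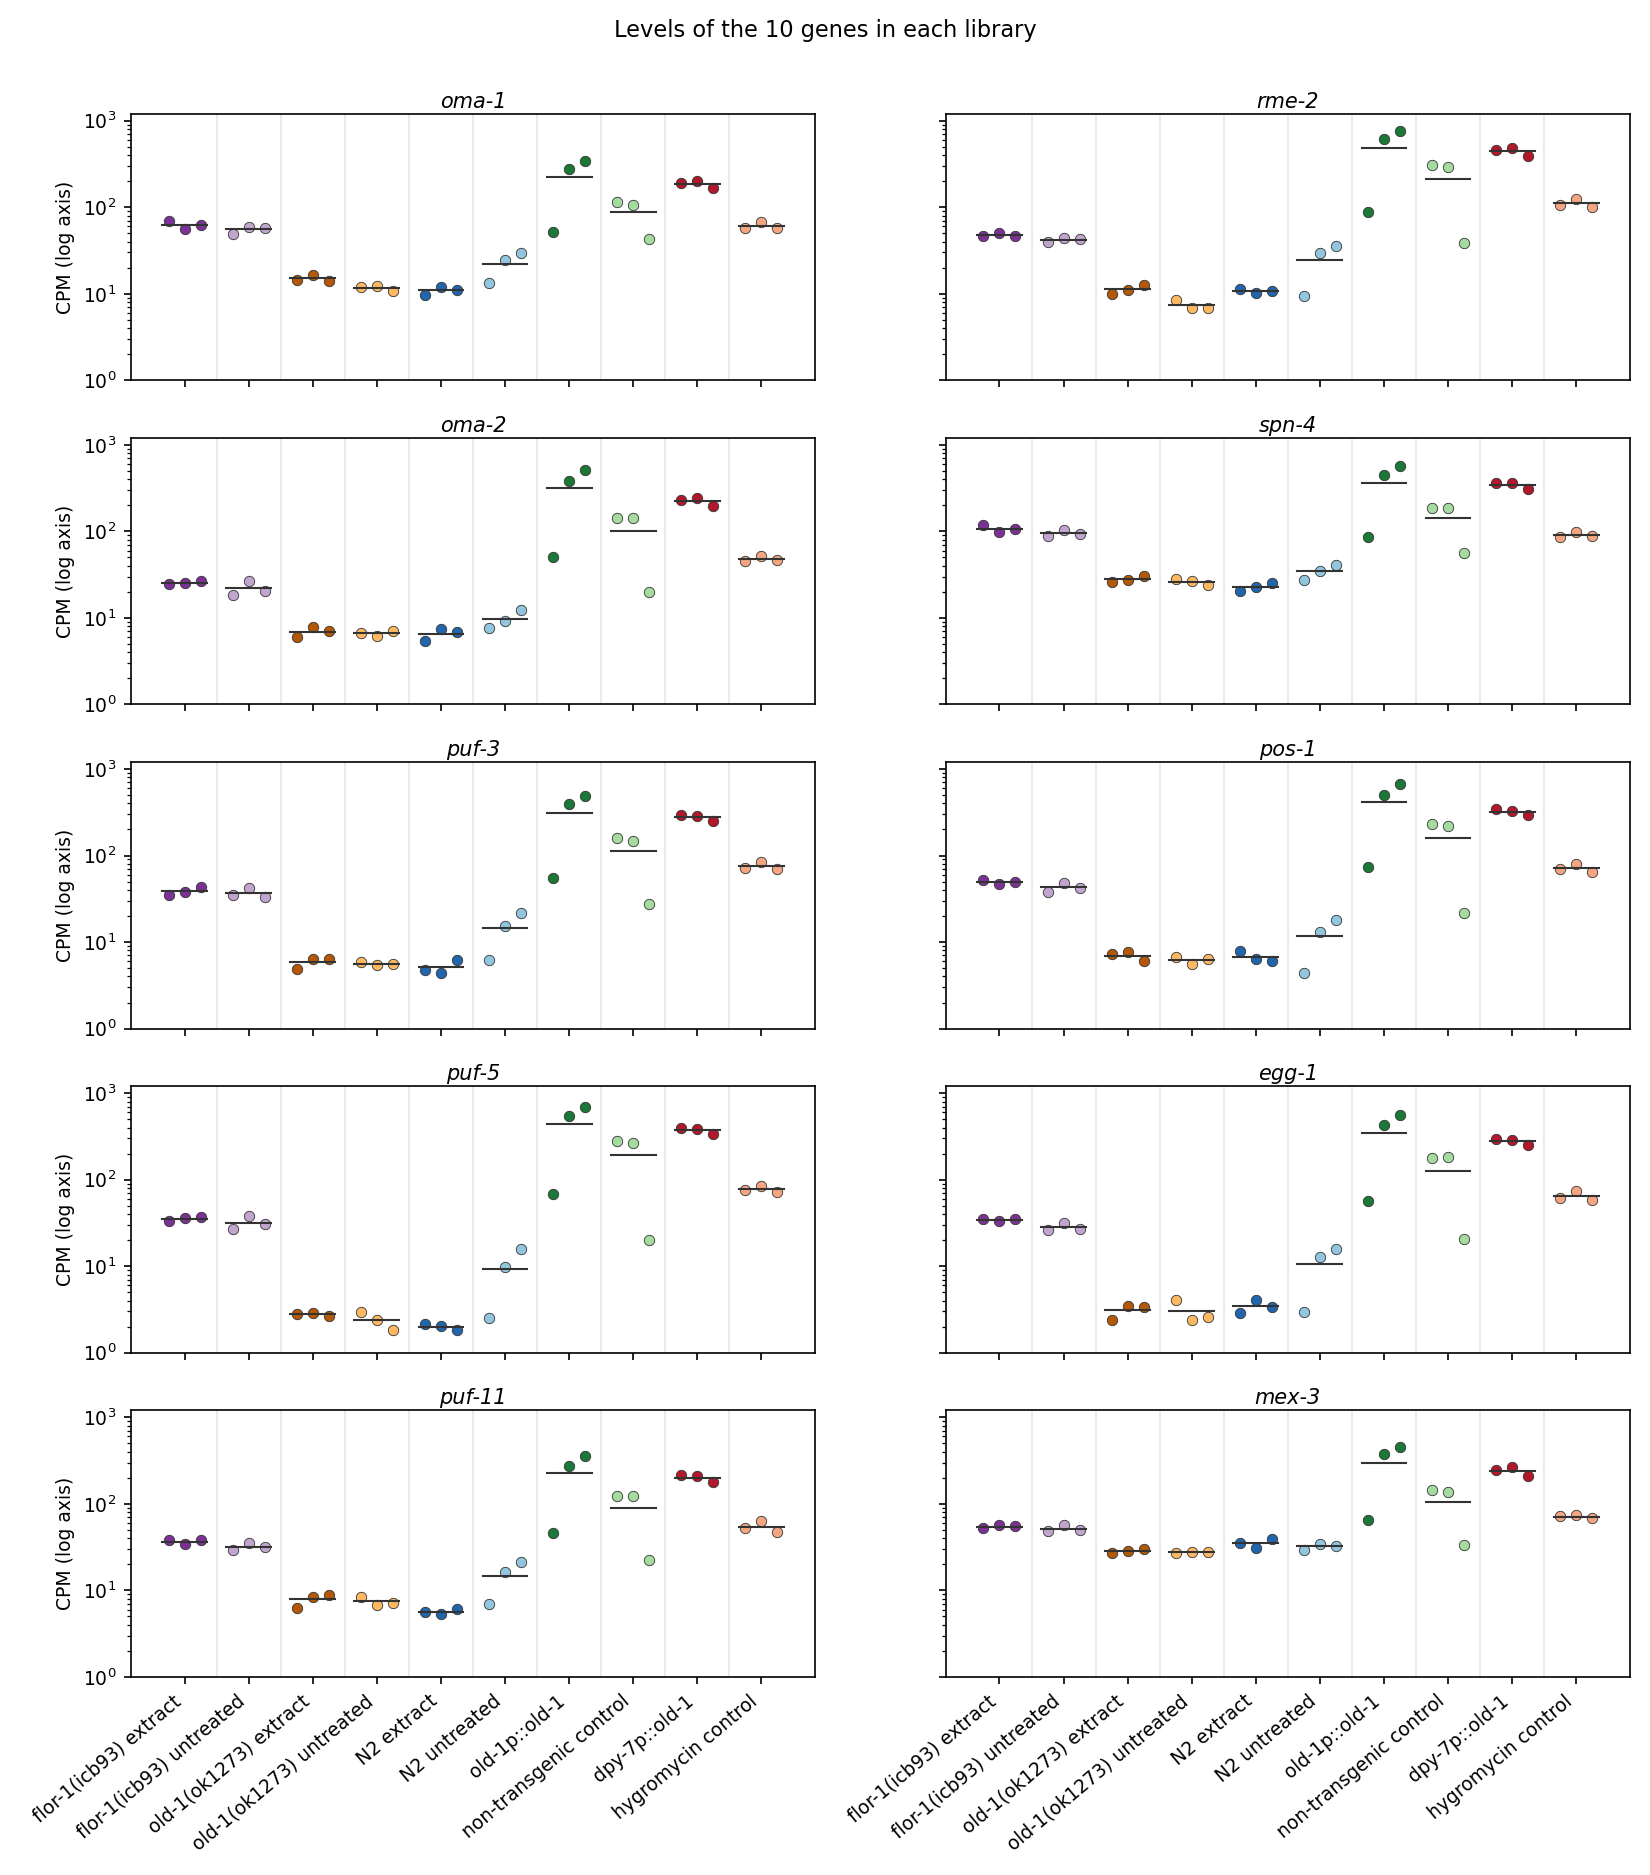
Level of each of the 10 genes in CPM (log axis) in the 30 libraries, with 1 point per library and a bar at the mean of each group of 3. In every panel the points of *flor-1(icb93)* lie above those of *old-1(ok1273)* and N2, the dpy-7p::old-1 points lie above the hygromycin control points, and the old-1p::old-1 and non-transgenic groups are split; *mex-3* has the narrowest span, 16.7-fold between its lowest and highest library.

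The top of this order depended on the measure. In mean CPM, unlike in the mean log2 CPM above, old-1p::old-1 animals were the highest group for every gene. For *oma-1* they had 223 CPM, against 187 CPM in dpy-7p::old-1 animals, with replicates B and C well above A. Elsewhere, single genes departed from the order. The lowest group was extract-treated N2 for some genes and untreated *old-1(ok1273)* for the others. *mex-3* averaged 34.9 CPM in extract-treated N2 and 32.1 CPM in untreated N2, and *spn-4* averaged 108 CPM in extract-treated *flor-1(icb93)* and 90.3 CPM in hygromycin controls, whose libraries touched at 97.3 CPM. The genes also differed in the size of the span. For *puf-5* the level was 383-fold higher in the highest library than in the lowest, 691 CPM against 1.81 CPM, and for *egg-1* it was 237-fold higher. Then came *pos-1* at 154-fold, *rme-2* at 113-fold, *puf-3* at 112-fold, *oma-2* at 94.7-fold and *puf-11* at 67.3-fold. *oma-1*, *spn-4* and *mex-3* had the narrowest spans, 35.1-fold, 27.3-fold and 16.7-fold. Across the 30 libraries, the Pearson correlation of log2 CPM between members had a median of 0.984 over 45 pairs, and the lowest was 0.921, between *puf-5* and *mex-3*. These points share libraries and include large differences between groups, so the coefficients are a description. Per length, in the low libraries the early-embryo regulators led: extract-treated N2 had 18.7 ± 1.65 TPM of *mex-3* and 13.2 ± 1.26 TPM of *spn-4*, against 0.819 ± 0.0730 TPM of *puf-5* and 1.65 ± 0.295 TPM of *egg-1* (SD, n = 3). In dpy-7p::old-1 animals *pos-1* stood highest at 281 ± 27.7 TPM, then *spn-4* at 201 ± 24.6 TPM and *puf-5* at 154 ± 17.2 TPM, while *mex-3* at 108 ± 14.7 TPM and *oma-1* at 90.5 ± 12.9 TPM were among the lowest.

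The first question was whether extract changed these genes in wild-type animals. In N2, 8 of 10 were called lower with extract and 0 higher, where a call needed p under 0.01 and a Benjamini-Hochberg adjusted p under 0.1 in edgeR's quasi-likelihood test; among all genes the share called lower was 20.4% and the share called higher 14.7%. The 2 genes without a call were *pos-1* and *mex-3*. However, the untreated libraries did not form one level. Replicate A lay near the extract libraries and replicates B and C lay above it.

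Of the maturation factors, *oma-1* had 9.75, 12.0 and 11.1 CPM in the N2 extract libraries, against 13.2, 24.5 and 29.4 CPM in untreated N2 A, B and C. Its paralog *oma-2* had 5.40, 7.52 and 6.79 CPM with extract, against 7.58, 9.14 and 12.5 CPM untreated. For both, the extract libraries lay below all untreated libraries, but replicate A only narrowly above them. The log2 fold change was -1.03 for *oma-1* (SE 0.21, adjusted p 0.00137) and -0.57 for *oma-2* (SE 0.18, adjusted p 0.0227).

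Of the Pumilio repressors, *puf-5* had the largest difference of the 10 genes. *puf-5* had 2.15, 2.04 and 1.81 CPM with extract, against 2.54, 9.78 and 15.8 CPM untreated, a log2 fold change of -2.24 (SE 0.43, adjusted p 0.0011). *puf-3* had 4.77, 4.41 and 6.16 CPM with extract and 6.14, 15.4 and 21.6 CPM without. *puf-11* had 5.55, 5.26 and 6.16 CPM with extract and 6.93, 16.1 and 21.0 CPM without. Groups did not overlap for *puf-5* and *puf-11*, and for *puf-3* extract C and untreated A were level. Log2 fold changes were -1.49 for *puf-3* and -1.38 for *puf-11*, with adjusted p of 0.00169 and 0.00127.

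Among the surface proteins, the yolk receptor gene *rme-2* had 11.5, 10.3 and 10.8 CPM in extract libraries, against 9.55, 29.8 and 35.2 CPM in untreated ones. *egg-1* had 2.88, 4.04 and 3.38 CPM with extract, against 2.92, 12.9 and 15.9 CPM without. Both were called lower (log2 fold change -1.20 and -1.62, adjusted p 0.00528 and 0.00579), although untreated A lay below every extract library for *rme-2* and within them for *egg-1*.

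The early-embryo regulators differed from each other. *spn-4* had 20.6, 22.8 and 25.0 CPM with extract, against 27.6, 34.7 and 40.9 CPM untreated, with no overlap and a log2 fold change of -0.59 (SE 0.12, adjusted p 0.00184). *pos-1* had 7.81, 6.37 and 6.08 CPM with extract, against 4.36, 13.0 and 18.1 CPM untreated, and its untreated libraries lay on both sides of the extract ones (log2 fold change -0.82, SE 0.32, adjusted p 0.0547). For *mex-3* the values were 35.1, 31 and 38.7 CPM with extract and 29.1, 34.5 and 32.8 CPM without. These overlapped, and the log2 fold change was 0.12 (SE 0.09, adjusted p 0.308).

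The lower values rested on untreated N2 B and C. With both left out, the median log2 fold change of the 10 genes was -0.23, and the only gene called was *pos-1*, which was then higher (log2 fold change 0.62, adjusted p 0.0366). The single remaining untreated library is there assumed to vary like the other groups. Fitted on the 6 N2 libraries alone, 1 of 10 genes was called lower, and the share of all genes called in that fit is not given. Genes of other tissues and stages moved with the same libraries: in extract-treated N2 all 6 yolk protein genes, all 12 sperm genes and all 5 adult cuticle collagens listed were called lower, with medians of -7.24, -2.84 and -5.92, against a median of -0.01 over all genes. Adult cuticle collagens summed to 64.8 to 99.1 CPM in the extract libraries and to 85.1 CPM in untreated A, but to 1089 and 1444 CPM in untreated B and C. Their part in the lower values was not tested. In whole animals, fewer oocytes and less of these messengers per oocyte cannot be told apart.

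In both mutants, extract left no called difference in these genes. In *flor-1(icb93)* with extract, 0 of 10 genes were called by edgeR's quasi-likelihood test in either direction, 0 had an unadjusted p under 0.05, and DESeq2 and limma also called 0; over all genes the share called was 0% in each direction. Log2 fold changes lay between 0.08 and 0.29 with SE of 0.08 to 0.37, and all 10 were above 0. *rme-2*, with 46.0, 50.5 and 46.5 CPM with extract and 39.6, 43.7 and 43.0 CPM without, and *egg-1*, with 34.9, 33.6 and 34.7 CPM and 26.4, 31.4 and 26.8 CPM, were the 2 genes whose groups did not overlap. The share of all genes whose groups separate in this way is not given, so this count is a description. *puf-5* had 33.4, 35.8 and 37.3 CPM with extract, against 26.9, 37.7 and 30.7 CPM untreated, which overlapped.

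In *old-1(ok1273)* with extract, 0 of 10 genes were called by edgeR's quasi-likelihood test, 0 had an unadjusted p under 0.05, and DESeq2 and limma called 0, where 12.7% of all genes were called higher and 11.3% lower. *oma-1* had 14.5, 16.6 and 14.2 CPM with extract, against 12.1, 12.3 and 10.9 CPM untreated, and *rme-2* had 10, 11.1 and 12.6 CPM, against 8.37, 6.85 and 6.80 CPM. These were the 2 genes without overlap, with log2 fold changes of 0.35 (SE 0.21, adjusted p 0.251) and 0.61 (SE 0.31, adjusted p 0.178). The other 8 had log2 fold changes of 0.03 to 0.21. Here too, the share of all genes without overlap is not given, so the count of 2 is a description. Fitted on the 6 *old-1(ok1273)* libraries alone, 2 of 10 were called higher, and the share of all genes called in that fit is not given.

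The difference between extract responses was tested directly. The response in *old-1(ok1273)* minus that in N2 was above 0 and called for 6 of 10 genes and below 0 and called for none, where 18% of all genes were called above and 13.1% below. It was 2.45 on the log2 scale for *puf-5* (SE 0.62, adjusted p 0.00763), 1.81 for *rme-2* and 1.38 for *oma-1*, while *mex-3* had -0.08 (SE 0.12). For *flor-1(icb93)* minus N2, 8 of 10 were called above 0 and none below, where 14.4% of all genes were called above and 9.48% below, again led by *puf-5* at 2.41 (SE 0.57, adjusted p 0.00884) and *egg-1* at 1.91 (SE 0.55, adjusted p 0.0207). Both tests share the 6 N2 libraries. Without untreated N2 B and C, 1 gene was called in each, *oma-1* for *old-1(ok1273)* minus N2 (0.61) and *spn-4* for *flor-1(icb93)* minus N2 (0.45).

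**Figure D2:**
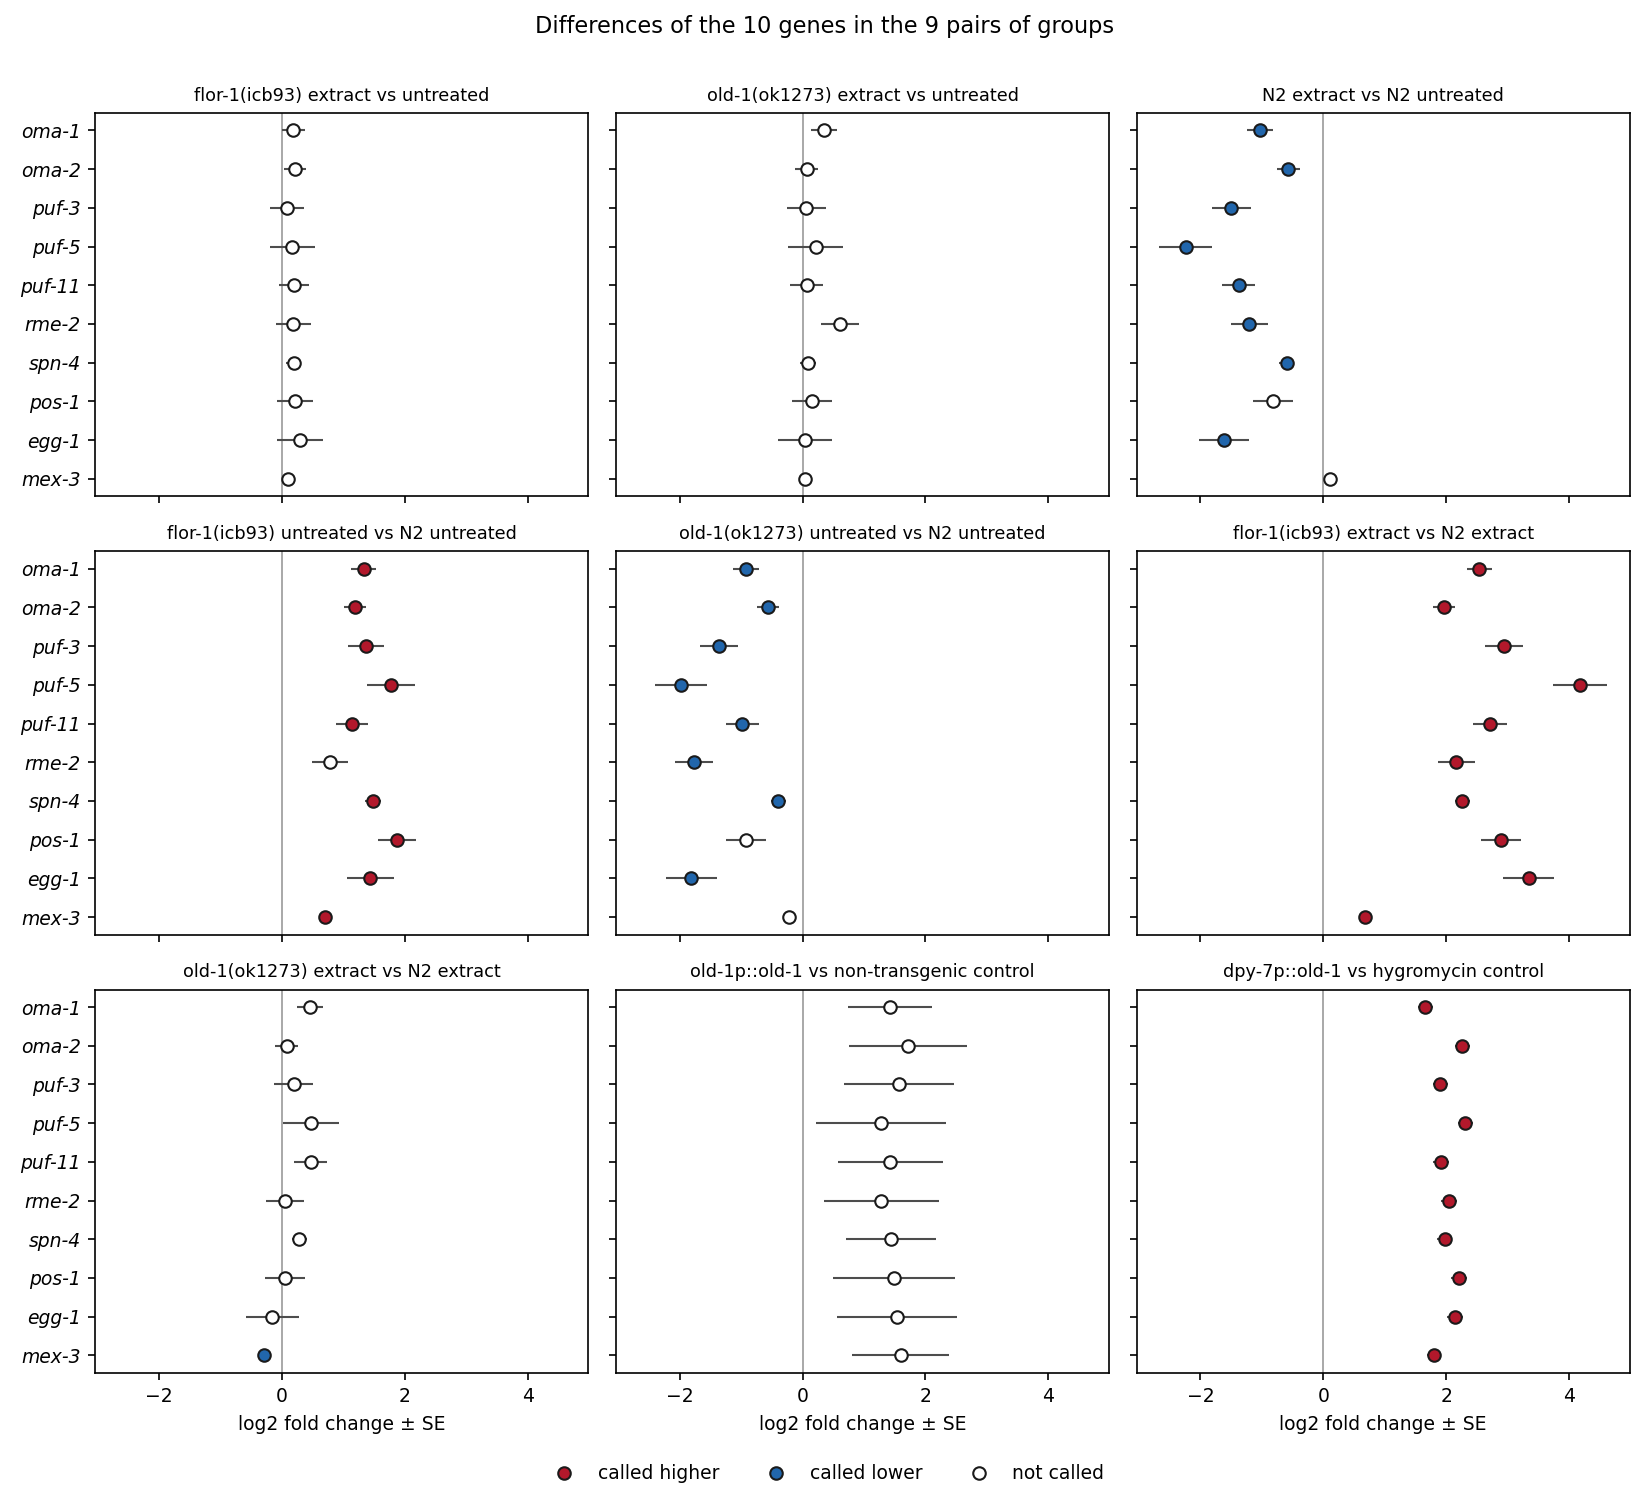
Log2 fold change with its standard error (edgeR) for each gene in 9 pairs of groups, the first-named group over the second; filled points were called. The dpy-7p::old-1 panel has all 10 genes called higher between 1.66 and 2.31, the old-1p::old-1 panel has values of 1.28 to 1.72 with standard errors of 0.69 to 1.06 and no call, and the calls of the N2 and untreated *old-1(ok1273)* panels rest on untreated N2 B and C.

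Without extract, levels were higher in *flor-1(icb93)* than in N2, whereas the lower calls in *old-1(ok1273)* rested on untreated N2 B and C. In untreated *flor-1(icb93)*, 9 of 10 genes were called higher than in untreated N2 and none lower, where 20.9% of all genes were called higher and 19.8% lower. All 10 genes had every *flor-1(icb93)* library above every N2 library. For this and the other comparisons, the share of all genes whose groups separate in this way is not given, so such counts are a description. *pos-1* had 38.1, 47.8 and 42.5 CPM in untreated *flor-1(icb93)*, against 4.36, 13.0 and 18.1 CPM in untreated N2, the largest difference of the 10 (log2 fold change 1.88, SE 0.31, adjusted p 0.000155). *spn-4* had 88.5, 104 and 92.1 CPM, against 27.6, 34.7 and 40.9 CPM, which gave 1.48 with a small error (SE 0.12, adjusted p 2.23e-07). *rme-2*, with 39.6, 43.7 and 43.0 CPM against 29.8 and 35.2 CPM in N2 B and C and 9.55 CPM in A, was the gene without a call (log2 fold change 0.78, SE 0.29, adjusted p 0.0369). With N2 B and C left out, the log2 fold changes were 0.82 to 3.65, with a median of 2.18. On the 6 untreated libraries alone 5 of the 10 were called, and the share of all genes called in that fit is not given. Sperm transcripts summed to 807 to 891 CPM in untreated *flor-1(icb93)*, against 52.1 to 592 CPM in untreated N2, and yolk protein transcripts to 3127 to 3913 CPM, against 14.1 to 2358 CPM, with 4 of 12 sperm genes and 1 of 6 yolk protein genes called higher (medians 1.13 and 1.66). Of 10 genes of other tissues 5 were called lower (median -0.28), and of 5 adult cuticle collagens 2 were. The muscle paramyosin gene *unc-15* was called lower at -0.55, whereas the muscle myosin gene *unc-54* had 0.11 without a call. The part of these other genes in the higher values was not tested.

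In untreated *old-1(ok1273)*, 8 of 10 genes were called lower than in untreated N2 and none higher, where 23.3% of all genes were called lower and 15.7% higher. *puf-5* had 2.96, 2.36 and 1.84 CPM in the mutant, against 2.54, 9.78 and 15.8 CPM in N2 (log2 fold change -1.98, SE 0.43, adjusted p 0.00178). *rme-2* had 8.37, 6.85 and 6.80 CPM, against 9.55, 29.8 and 35.2 CPM (log2 fold change -1.76, SE 0.31, adjusted p 0.000395). *rme-2* was lower in every mutant library, whereas for *puf-5* N2 replicate A lay among the mutant libraries. *mex-3* had 27.3, 27.8 and 27.9 CPM, against 29.1, 34.5 and 32.8 CPM, without overlap and without a call (log2 fold change -0.22, SE 0.09, adjusted p 0.0475). With N2 B and C left out, edgeR called 0 of 10 in this comparison, 2 genes had an unadjusted p under 0.05, and the median log2 fold change was -0.08. On the 6 untreated libraries alone 1 was called, and the share of all genes called in that fit is not given. All 6 yolk protein genes and all 5 adult cuticle collagens were also called lower in untreated *old-1(ok1273)* (medians -8.30 and -5.71). Yolk protein transcripts summed to 5.42 to 7.98 CPM in the mutant, against 14.1 to 2358 CPM in N2, and adult collagens to 29.8 to 38.8 CPM, against 85.1 to 1444 CPM, so that on both sums the mutant libraries lay below N2 replicate A as well. Sperm transcripts summed to 99.8 to 105 CPM, against 52.1 to 592 CPM, which overlapped, with 11 of 12 sperm genes called lower. Their part in the lower values was not tested.

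With extract, the N2 libraries were uniform, and the fold changes between genotypes do not involve untreated N2. The model, however, estimates the spread from all libraries of the extract experiment, untreated N2 included. In extract-treated *flor-1(icb93)*, 10 of 10 genes were called higher than in extract-treated N2, where 30.5% of all genes were called higher and 27.9% lower. *puf-5* had 33.4, 35.8 and 37.3 CPM in *flor-1(icb93)*, against 2.15, 2.04 and 1.81 CPM in N2, 18.2-fold higher (log2 fold change 4.18, SE 0.44, adjusted p 1.01e-06). *egg-1* had 34.9, 33.6 and 34.7 CPM, against 2.88, 4.04 and 3.38 CPM, 10.2-fold higher. *oma-1* had 69.8, 55.4 and 63.0 CPM, against 9.75, 12.0 and 11.1 CPM, 5.82-fold higher, and *oma-2* 24.4, 25.0 and 26.4 CPM, against 5.40, 7.52 and 6.79 CPM, 3.91-fold higher. *mex-3* changed least, at 52.9, 56.3 and 54.8 CPM, against 35.1, 31 and 38.7 CPM (log2 fold change 0.68, SE 0.09, adjusted p 5.41e-06). No alternative setting or left-out library changed this count of 10. Yolk protein transcripts summed to 2896 to 3092 CPM in these *flor-1(icb93)* libraries, against 14.5 to 16.6 CPM in N2, and sperm transcripts to 815 to 936 CPM, against 51.8 to 62.9 CPM. Adult cuticle collagens summed to 845 to 986 CPM, against 64.8 to 99.1 CPM, and 5 of 10 genes of other tissues were called lower. Their part in the higher values was not tested.

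In extract-treated *old-1(ok1273)*, 1 of 10 genes was called lower than in extract-treated N2 and none higher, where 10.9% of all genes were called lower and 6.22% higher. The gene was *mex-3*, with 27.3, 28.5 and 29.7 CPM in *old-1(ok1273)*, against 35.1, 31 and 38.7 CPM in N2 (log2 fold change -0.30, SE 0.09, adjusted p 0.0272). The mutant libraries were all below, by a small margin, and the call was lost without N2 extract C or without *old-1(ok1273)* extract A. *oma-1* had 14.5, 16.6 and 14.2 CPM in the mutant, against 9.75, 12.0 and 11.1 CPM, a separation that was not called (log2 fold change 0.46, SE 0.21, adjusted p 0.155).

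Overexpression of *old-1* from its own promoter gave high but divided values. No gene of the 10 was called by edgeR's quasi-likelihood test in old-1p::old-1 animals against their non-transgenic controls, none had an unadjusted p under 0.05, and DESeq2 and limma called 0, where 0.0921% of all genes were called higher and 0.0246% lower. Replicate A of the transgenic group and replicate C of the control were the low libraries of their groups for each gene. *oma-1* had 52.3, 274 and 342 CPM in transgenic A, B and C, against 114, 107 and 42.9 CPM in control A, B and C. *puf-5* had 69.0, 546 and 691 CPM, against 283, 268 and 20.3 CPM. *rme-2* had 87.0, 609 and 767 CPM, against 310, 290 and 38.8 CPM. Transgenic B and C thus lay above all 3 controls and transgenic A below control A and B for each of these genes.

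The same division held for the remaining genes. *spn-4* had 85.6, 449 and 564 CPM in transgenic A, B and C, against 184, 188 and 56.1 CPM in the controls, and *pos-1* 74.3, 506 and 673 CPM, against 231, 222 and 21.7 CPM. *mex-3* had 64.4, 376 and 454 CPM, against 144, 136 and 33.5 CPM. Groups overlapped for all 10, and log2 fold changes were 1.28 to 1.72 with SE of 0.69 to 1.06 and adjusted p of 0.286 to 0.475. Leaving out transgenic A brought 1 call, *oma-1* (log2 fold change 1.72, SE 0.41, adjusted p 0.0361), and 6 genes then had an unadjusted p under 0.05. Leaving out control C brought no call in edgeR and 0 genes with an unadjusted p under 0.05, and the median was then 1.05 on the log2 scale. Yolk transcripts were low in the same libraries, whereas other lists ran the other way. Sperm transcripts summed to 751, 372 and 227 CPM in transgenic A, B and C, against 131, 192 and 617 CPM in control A, B and C. Adult cuticle collagens summed to 1017, 981 and 907 CPM, against 334, 406 and 925 CPM. The part of these other genes in the values was not tested.

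Expression of *old-1* in the epidermis came with a uniform difference. In dpy-7p::old-1 animals 10 of 10 genes were called higher than in hygromycin controls, where the share over all genes was 24.9% higher and 20.9% lower. No library of one group reached into the other for any of the 10 genes, but the share of all genes that separate in this way is not given. The log2 fold changes lay between 1.66 and 2.31, with SE of 0.12 to 0.14, and adjusted p was 3.65e-06 to 1.19e-05. No alternative setting or left-out library changed the count.

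*oma-1* had 193, 202 and 167 CPM in dpy-7p::old-1 libraries, against 57.1, 68.4 and 57.3 CPM in hygromycin controls, and *oma-2* had 233, 243 and 199 CPM, against 45.7, 52.6 and 46.8 CPM. The first was 3.17-fold higher and the second 4.79-fold higher. *puf-5* had 391, 389 and 341 CPM, against 76, 83.8 and 72.4 CPM, the largest difference (log2 fold change 2.31, SE 0.12, adjusted p 3.65e-06). *puf-3* had 293, 286 and 248 CPM, against 72.3, 84.5 and 70.6 CPM, and *puf-11* 213, 207 and 180 CPM, against 52.4, 63.5 and 47.6 CPM. Both were higher by a similar factor, 3.74-fold for *puf-3* and 3.78-fold for *puf-11*.

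*rme-2* had 464, 484 and 390 CPM in dpy-7p::old-1 libraries, against 107, 123 and 102 CPM in hygromycin controls, and *egg-1* had 295, 286 and 250 CPM, against 60.9, 73.6 and 58.7 CPM. These oocyte surface genes were 4.14-fold and 4.43-fold higher. *spn-4* had 361, 363 and 312 CPM, against 85.9, 97.3 and 87.7 CPM, *pos-1* 346, 327 and 295 CPM, against 69.5, 80.8 and 64.5 CPM, and *mex-3* 248, 264 and 211 CPM, against 71.5, 73.3 and 68.7 CPM. The early-embryo regulators were thus 3.94-fold, 4.64-fold and 3.49-fold higher.

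Other genes of the oocyte moved the same way in dpy-7p::old-1 animals. These lists, like the 10 genes, were chosen with earlier results of these data known, so their counts are a description. All of 16 other maternal RNA regulators (16 of 16) were called higher, and their median was 1.71 on the log2 scale, where the median over all genes was -0.09. Among them *cgh-1*, a germline RNA helicase, had 1.57 (SE 0.13, adjusted p 2.17e-05), and *car-1*, its partner in germline RNA granules, 1.40. Of 12 oocyte surface, eggshell and egg activation genes 10 were higher, among them *cpg-2*, a chondroitin proteoglycan of the eggshell, at 1.85, whereas *perm-4* had -0.13 (SE 0.20, adjusted p 0.596). Of 17 genes of germ granules, stem cells and meiotic prophase 15 were higher, with a smaller median of 0.75, and of 12 sperm genes 7 were higher (median 0.86). The Argonaute gene *wago-1* had 1.11 and the germ granule helicase gene *glh-1* 0.33 (SE 0.13, adjusted p 0.0589), while the major sperm protein genes *msp-31* and *msp-33* had 0.92 and 0.99. Of 9 genes of maternal meiosis, polarity and fate 7 were higher, and the 2 without a call were the polarity kinase gene *par-1* at -0.08 and the transcription factor gene *skn-1* at 0.15.

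Yolk protein genes, whose products RME-2 takes up, were not called by edgeR in dpy-7p::old-1 animals. Of the 6, edgeR called 0, limma 0 and DESeq2 2, and 4 had an unadjusted p under 0.05. Their median was -0.66 on the log2 scale. *vit-2* had 15008, 14813 and 11550 CPM in dpy-7p::old-1 libraries, against 13100, 22162 and 16888 CPM in hygromycin controls (log2 fold change -0.29, SE 0.25, adjusted p 0.344), and *vit-6* had a log2 fold change of -0.61 (SE 0.27, adjusted p 0.0798). Adult cuticle collagens were called lower for 4 of 5, somatic gonad genes for 5 of 5 and genes of muscle, pharynx, intestine, neurons and epidermis for 7 of 10, with medians of -1.09, -0.68 and -0.60. The muscle myosin gene *unc-54*, for example, had 5887, 4603 and 5565 CPM, against 8342, 10412 and 9007 CPM, and *unc-15* had a log2 fold change of -0.78. The collagen genes *bli-2* and *col-19* were at -1.09 and -0.50, the second without a call, and the somatic gonad genes *ceh-18* and *inx-8* at -0.68 and -0.52. Of 9 early zygotic genes 1 passed the low-count filter, *pes-10*, with 0.636, 2.03 and 0.631 CPM, against 0, 0.163 and 0.175 CPM, and *end-3* did not pass. The 9 genes summed to 0.834 to 3.12 CPM, against 0.654 to 0.817 CPM. The part of these other genes in the higher values was not tested.

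**Figure D3:**
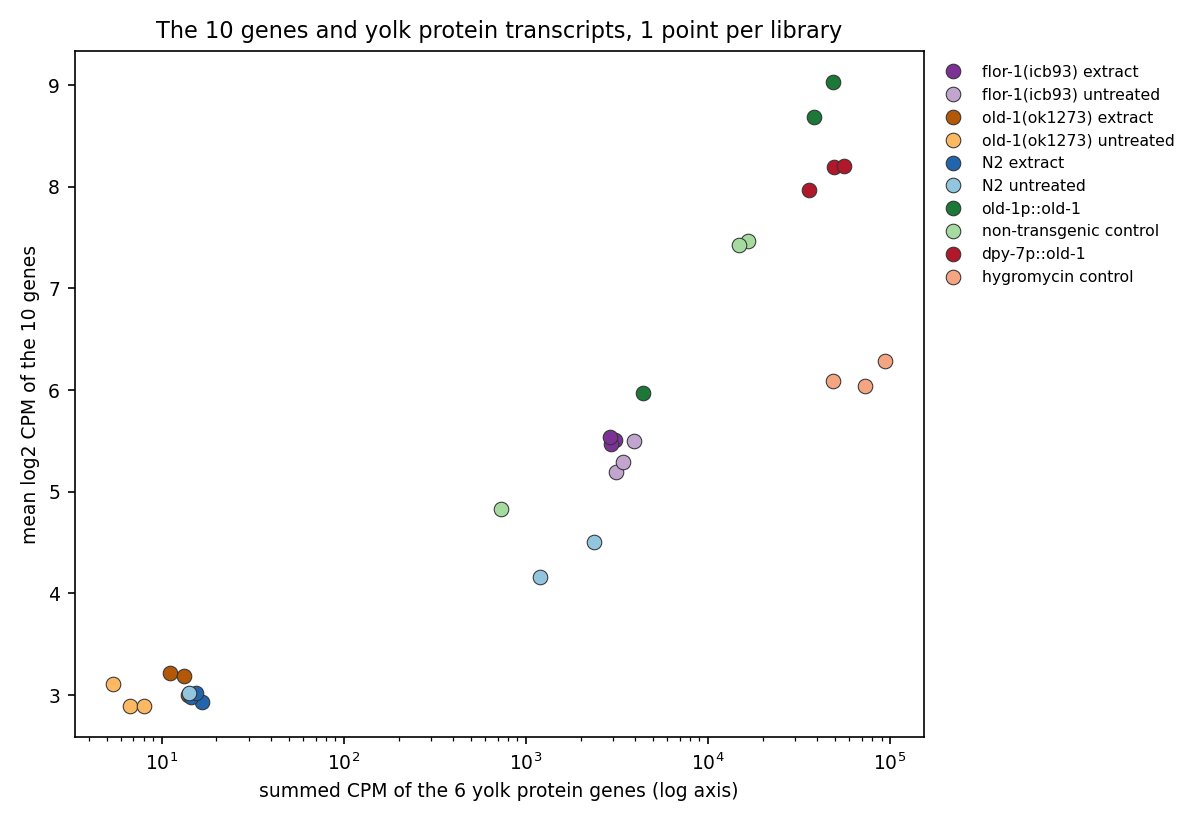
Mean log2 CPM of the 10 genes against the summed CPM of the 6 yolk protein genes (log axis), 1 point per library, coloured by group. The dpy-7p::old-1 libraries have 36135 to 55846 CPM of yolk transcript and the hygromycin controls 48947 to 94158 CPM, at group means for the 10 genes of 8.12 and 6.14; untreated N2 A lies with the extract-treated N2 libraries.

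The ratio between the *oma* paralogs, looked at after values were seen, had different ranges in some groups. Per length, *oma-2* over *oma-1* in TPM was 1.43 to 1.45 in dpy-7p::old-1 animals, against 0.921 to 0.983 in hygromycin controls, and 1.17, 1.69 and 1.79 in old-1p::old-1 A, B and C, against 1.5, 1.61 and 0.553 in non-transgenic A, B and C. In all 18 libraries of the extract experiment *oma-1* exceeded *oma-2*, and the ratio was 0.414 to 0.770. Of 9 pairs of groups compared, 3 separated without overlap. The log2 ratio was higher by 0.60 in dpy-7p::old-1 animals than in hygromycin controls. With extract it was lower than in N2 in both mutants, with a difference of -0.58 for *flor-1(icb93)*, at 0.414 to 0.535 against 0.664 to 0.751 in N2, and of -0.38 for *old-1(ok1273)*, at 0.491 to 0.601 against the same N2 libraries. Each of the 3 had p = 0.1 in a two-sided exact permutation test, the smallest that 3 against 3 can give, and an adjusted p of 0.3 over the 9 pairs. The paralogs are similar in sequence, as are *puf-3* and *puf-11*, and *egg-1* and *egg-2*, so the division of reads between copies by the authors' quantification is uncertain. The *puf-3* over *puf-11* ratio was 1.36 to 1.37 in dpy-7p::old-1 animals and 1.32 to 1.47 in hygromycin controls, against 0.693 to 0.777 in untreated *old-1(ok1273)*.

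**Figure D4:**
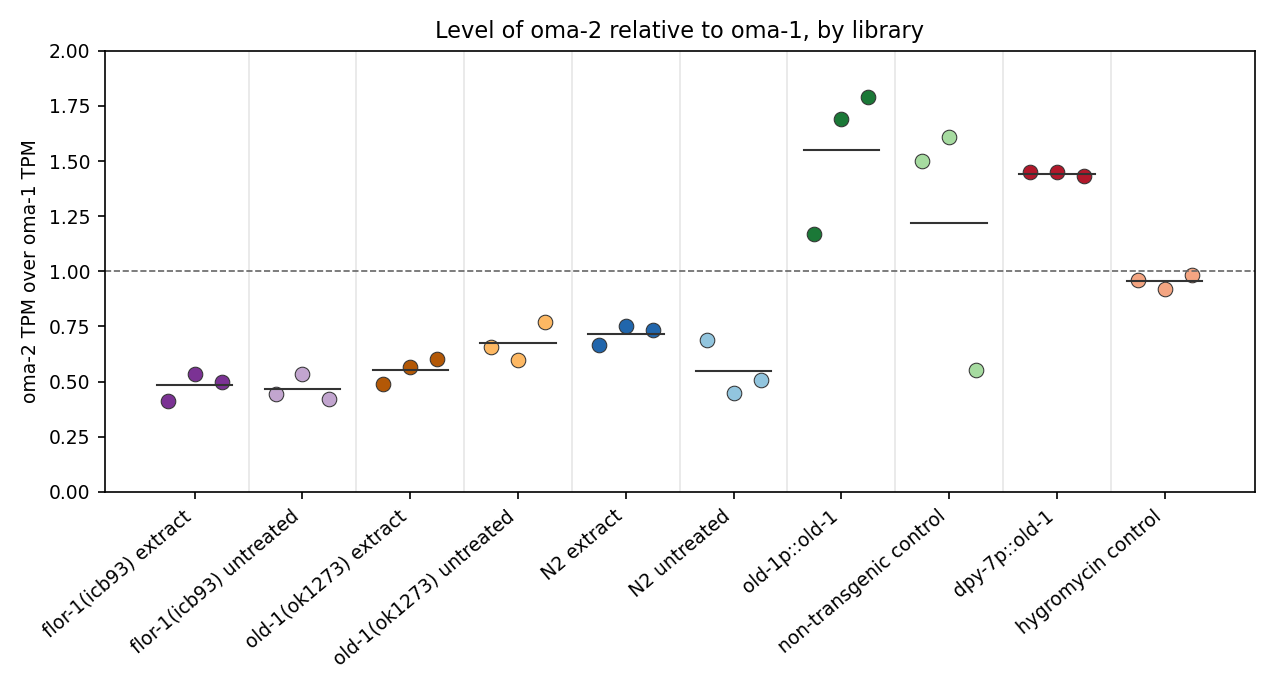
Ratio of *oma-2* to *oma-1* in TPM, 1 point per library, with a bar at each group's mean and a dashed line at 1. The 8 points above the line are those of dpy-7p::old-1, of old-1p::old-1 and of non-transgenic A and B; all 18 libraries of the extract experiment are at 0.770 or below.

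The narrow span of *mex-3* came with a difference between its transcripts. The files list 4 for this gene (F53G12.5), of which 2 are forms of the a class, 1 is b and 1 is c. The b form starts translation upstream of the a forms and differs in the start of an internal exon, so few reads separate them. The c form had 0 CPM in every *flor-1(icb93)* library. In old-1p::old-1 B and C it had 23.9 and 28.9 CPM, above the b form at 13.2 and 12.2 CPM. Summed, the a forms had 196 to 253 CPM in dpy-7p::old-1 animals, against 56.7 to 60.3 CPM in hygromycin controls, and spanned 33-fold over the 30 libraries. The b form had 9.02 to 11.7 CPM in dpy-7p::old-1 animals, against 8.39 to 14.8 CPM in hygromycin controls, and spanned 3.03-fold, from 5.58 to 16.9 CPM. It made up 3.50 to 5.52% of *mex-3* counts in dpy-7p::old-1 animals, but 40.5 to 45.1% in extract-treated N2 and 23.6 to 46.4% in untreated N2. In *flor-1(icb93)* with extract, the a forms had 38.9 to 46.1 CPM, against 16.3 to 19.7 CPM in N2 with extract, and the b form 10 to 14.0 CPM, against 12.5 to 16.9 CPM.

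**Figure D5:**
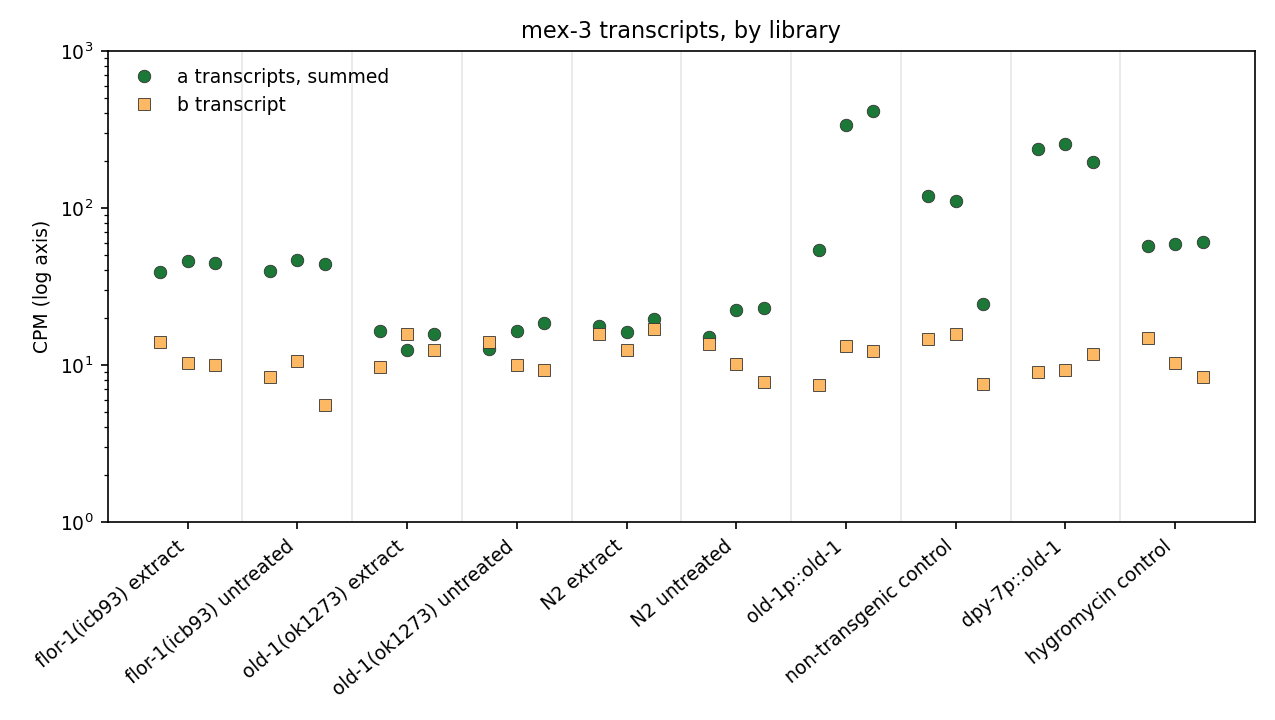
Summed level of the F53G12.5a transcripts (circles) and level of the F53G12.5b transcript (squares) of *mex-3* in CPM (log axis), 1 point of each per library. Circles span 12.5 to 413 CPM, and squares stay between 5.58 and 16.9 CPM in all 30 libraries.

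The genes whose profile over the 30 libraries was most like the mean of the 10 were ranked by Pearson correlation of log2 CPM among 17484 other genes, as a description. The closest were *gfat-2* (r = 0.998), *mex-1* (0.998), an RNA-binding regulator of the early embryo, *cpg-2* (0.996), *chs-1* (0.996), the chitin synthase of the eggshell, and the egg activation pseudophosphatase genes *egg-4* and *egg-5* (0.995 each). The next were *cpg-1* (0.995), *mex-5* (0.994), *cyb-2.1* (0.993), a cyclin B gene, and *cbd-1* (0.993), which encodes a chitin-binding eggshell protein. Of these 10 genes 8 were in the lists of other maternal RNA regulators or of eggshell genes. Those lists were chosen with earlier results of these data known.

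The 10 genes lie on 5 chromosomes of the assembly WBcel235. On IV are *oma-1* (IV:8888976-8890999, plus strand), *puf-3* (IV:13510307-13512162, minus), *puf-11* (IV:6421585-6423497, plus) and *rme-2* (IV:5470026-5473174, plus). On V are *oma-2* (V:8029439-8031214, plus), *spn-4* (V:6783187-6784903, minus) and *pos-1* (V:8414086-8415254, plus). *puf-5* is at II:8575541-8577787 (plus), *egg-1* at III:5728180-5730159 (plus) and *mex-3* at I:127285-134270 (plus). The 3 Pumilio genes thus do not neighbour each other, and *oma-1* and *oma-2* are on different chromosomes.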

How the data were processed

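RNA of 30 whole-animal samples was sequenced, and the labels and the study's methods name kallisto, run on the WormBase WS283 transcriptome, and sleuth. The authors deposited 1 table per sample with an estimated count for each of 37058 transcripts, its length and its effective length. Transcripts were assigned to genes by WormBase sequence name (Ensembl release 115 annotation of WBcel235), and estimated counts were summed per gene and rounded; TPM was computed from the estimated counts and effective lengths. Members and gene lists were chosen with earlier results of these data known. The text names all 10 members, of each other list the 2 genes with the highest mean CPM, and the 10 genes most alike in profile; the *mex-3* transcripts and the *oma* ratio were looked at after values were seen.

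Differences were tested with edgeR 4.0.16 (R 4.3.3; quasi-likelihood F test, trimmed mean of M values, filterByExpr with min.count 5 and min.total.count 15), using the thresholds of the study, p under 0.01 and adjusted p under 0.1. One model took in the 18 extract-experiment libraries, and each overexpression experiment had its own model of 6 libraries. Alternatives were DESeq2 1.42.0, limma 3.58.1 on log2(TPM + 1), other scalings, filters, thresholds and sample sets, and a replicate block. The procedure was tested on simulated data. Replicates did not duplicate each other. Sequencing was done by a pair of providers, which the labels do not assign to samples.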

Additional observations from a re-analysis of the deposited data

Results flagged for a closer look

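Extract responses differed between genotypes in tests of the difference itself. The response in *old-1(ok1273)* minus that in N2 was called for 6 of the 10 genes, and the response in *flor-1(icb93)* minus that in N2 for 8 of the 10 (edgeR). Both rest on untreated N2 B and C, without which 1 gene was called in each.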

How the results depend on the processing

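The counts of 10 of 10 for dpy-7p::old-1 against hygromycin controls and for extract-treated *flor-1(icb93)* against extract-treated N2 did not change under any alternative run. With untreated N2 B and C left out, the number called was 1 for the N2 extract response (higher, where 8 had been lower), 1 for each difference of responses, and 0 for untreated *old-1(ok1273)* against N2. Signs then turned for *rme-2* (0.18), *pos-1* (0.62) and *egg-1* (0.25) in the N2 response. They also turned for *pos-1* (-0.452) and *egg-1* (-0.205) in *old-1(ok1273)* minus N2, and for *rme-2* (-0.001) and *pos-1* (-0.417) in *flor-1(icb93)* minus N2. In untreated *old-1(ok1273)* against N2 they turned for *puf-11* (0.10), *pos-1* (0.509) and *egg-1* (0.035). With only the compared groups fitted, the number called was 1 for the N2 response and 2 for the *old-1(ok1273)* response. It was 5 for *flor-1(icb93)* minus N2, and against N2 it was 1 for untreated *old-1(ok1273)* and 5 for untreated *flor-1(icb93)*. Extract-treated *old-1(ok1273)* against N2 had 2 (1 higher, 1 lower). These fits have fewer libraries, and the share of all genes called in them is not given.

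Leaving out each replicate in turn gave 5 to 9 calls for the N2 response, 6 to 9 for *old-1(ok1273)* minus N2, 5 to 9 for *flor-1(icb93)* minus N2, 5 to 10 for untreated *old-1(ok1273)*, 9 to 10 for untreated *flor-1(icb93)*, 0 to 1 for extract-treated *old-1(ok1273)* against N2 and 0 to 1 for old-1p::old-1. The count of 5 came without untreated N2 B or C for *flor-1(icb93)* minus N2, without C for the N2 response, and without C or *old-1(ok1273)* untreated B for untreated *old-1(ok1273)*.

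Over all genes, old-1p::old-1 against its control had 19 calls, but 1451 with DESeq2, 65 with limma, 9 at adjusted p under 0.05, 0 with the replicate block and 3750 without transgenic A. A replicate block changed no count of members, which stayed at 8 for the N2 response and 10 for dpy-7p::old-1. Same-numbered libraries deviated together with correlations of -0.448 to 0.298, so the numbers were not taken to pair samples. In the *old-1(ok1273)* response (0.020 to 0.028) and in extract-treated *old-1(ok1273)* against N2 (0.024 to 0.061) every library correlated best with its own letter, a hint from the data and not the design. Of the values for single genes under alternatives, 1688 stayed on the same side of the threshold, 84 lost a call and 22 gained one. A further 6 turned sign with a call in at least 1 of the 2 runs. Values without a call in either run are among the 1688 even where their sign turned, as for *pos-1* in untreated *old-1(ok1273)*. *puf-5* and *egg-1*, near 2 to 4 CPM in the low libraries, have the largest standard errors in the N2 response.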
